A study of Mus musculus with 11 samples.

Results

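Cells left without estradiol for 120 h were compared with cells left without it for 72 h and then given it back for 48 h, which asks which DNA methylation states persist or revert once estradiol returns. The comparison used 4 of the 11 libraries of the series, chosen by their labels, with 2 libraries of each group. All are mouse C57BL/6 ER-Hoxa9-Lys-GFP cells in culture, grown with stem cell factor (SCF)-conditioned medium, and methylation was read by reduced representation bisulfite sequencing (RRBS), which sequences CpG-rich restriction fragments after unmethylated cytosines have been converted. Methylation was summed in tiles of 500 bp (mm9 coordinates, chromosomes 1 to 19) with 3 or more CpGs of 10 or more reads in each of the 4 libraries, and 89356 tiles met this rule. Cells without estradiol for 24 h and then returned to it for 96 h (2 libraries), and cells kept in estradiol (1 library), served as references. The 120, 72 and 24 h groups each add up to 120 h of treatment. No library was taken at 72 h before return in the data used here, so a tile that sits at its 24 h level in the 72 h group may have reverted or may never have changed by 72 h, and these cannot be told apart. Whether replicates came from separate cultures is not in the labels, so the replicate spread behind each p-value may be technical only.

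Hoxa9 is a homeobox transcription factor that keeps myeloid progenitors immature. As a fusion with the estrogen receptor's ligand-binding domain it works only while estradiol is present, so withdrawal releases the cells into myeloid differentiation, and Lys-GFP reports the lysozyme gene of maturing myeloid cells. CpG methylation is copied to the new strand at each division by DNMT1. It is lost when copying fails over divisions or when TET enzymes oxidise it, and it is gained through the DNMT3 enzymes. CpG-dense promoters are mostly unmethylated and CpG-sparse DNA is mostly methylated. Intermediate values in bulk DNA can come from a share of the cells or from some of the alleles of each cell, which these data do not separate.

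The 2 libraries at 120 h had 46899896 and 31240339 CpG-read observations (reads summed over all listed CpGs), and those at 72 h then return had 34706471 and 23871326. The 24 h references had 16281112 and 46316547 and the library kept in estradiol had 12668839. The median tile held 133 observations per library. Replicate 1 was the deeper library in both compared groups.

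Over the genome sampled by RRBS, cells returned to estradiol and cells never returned were as alike as replicates were. Libraries from different groups differed by 10 percentage points or more in 3.21 to 4.51% of tiles, the 120 h replicates in 3.09% and the 72 h replicates in 4.77%. The mean was 3.93% between groups and 3.93% between replicates. Tile methylation correlated across tiles at r = 0.9933 to 0.9948 between groups, against 0.9949 and 0.9931 within them, a description over tiles that share their libraries. The mean over tiles was 0.06 points higher at 120 h.

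By the count of tiles 10 points or more apart, the likeness held in each class of methylation level and CpG density. Tiles were classed by the mean of the 4 libraries as low (under 20%), partly methylated (20 to 80%) or high (80% or more), and by the CpGs listed in them in any library as sparse (under 10), intermediate (10 to 19) or dense (20 or more). Among sparse partly methylated tiles (9604 tiles), 19.33% differed by 10 points or more between groups, and 15.89% and 21.99% differed within the 120 h and 72 h groups. Dense partly methylated tiles (693) differed in 15.58% between groups and in 12.7 and 17.17% within them. Low and high tiles differed far less in either way. Of the 44367 sparse high tiles 2.48% were 10 points or more apart between groups, and of the 7002 dense low tiles 0.09% were.

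**Figure D1:**
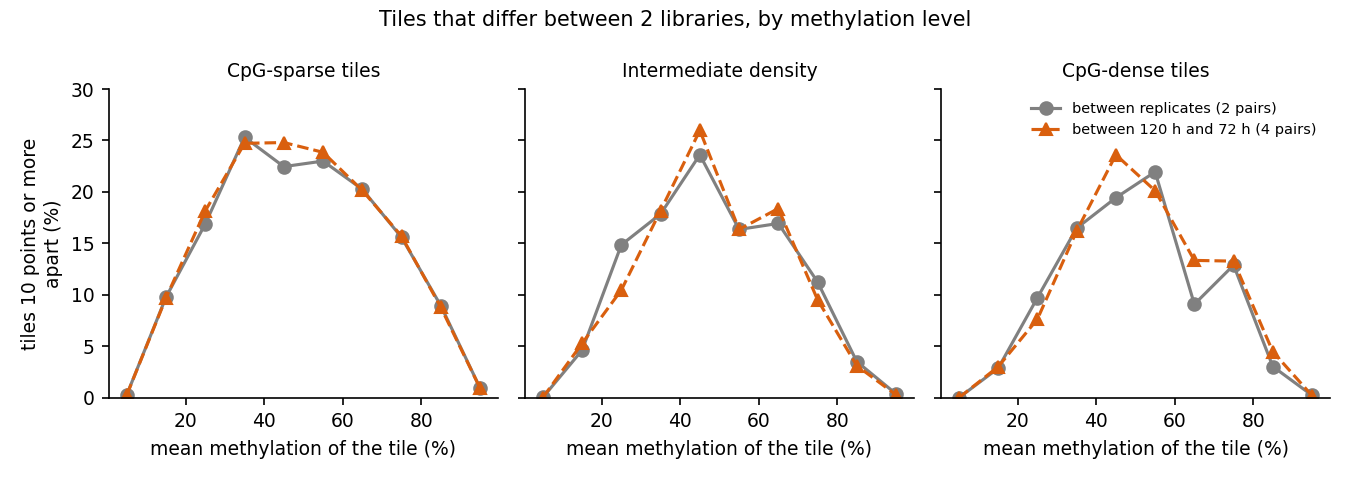
Share of tiles (y axis, %) that were 10 points or more apart between 2 libraries, by the tile's mean methylation (x axis, bins of 10 points) and CpG density (panels). Circles are the mean of the 2 pairs of replicates and triangles the mean of the 4 pairs of a 120 h and a 72 h library; the curves run close together and peak at middle levels, for example 24.72% between groups and 25.31% within them for sparse tiles at 30 to 40%.

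With each tile weighted alike, class means of the returned and the unreturned cells differed by less than the spread of their replicates. Sparse partly methylated tiles averaged 63.16% with estradiol throughout, 62.57 and 62.37% in the 24 h libraries, 61.43 and 61.99% in the 72 h libraries and 62.01 and 61.78% in the 120 h libraries. The 72 h and 120 h values thus overlapped, and all 4 lay below the references. The class was set by the mean of those 4 libraries and not by the references, so the gap to the references is not an independent measure of loss. Sparse high tiles gave 93.93 and 94.15% at 120 h and 93.86 and 94.09% at 72 h, against 94.22 and 94.24% at 24 h and 94.44% with estradiol throughout. In the dense low class, which holds the unmethylated CpG-rich DNA, all of these libraries lay between 1.02 and 1.11%. The difference of 120 h from 72 h was 0.18 points for sparse partly methylated tiles, and ran from -0.02 to 0.18 over the 9 classes (exact permutation test over libraries, two-sided, p = 0.667 to 1.0 in each class, where 2 against 2 libraries cannot go below 0.333). With reads summed over a class instead, which weights deep tiles more, 120 h was higher by 0.52 points in sparse, 1.39 in intermediate and 2.25 in dense partly methylated tiles. With same-numbered libraries alone the sparse partly methylated difference was 0.58 for replicate 1 and -0.21 for replicate 2.

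**Figure D2:**
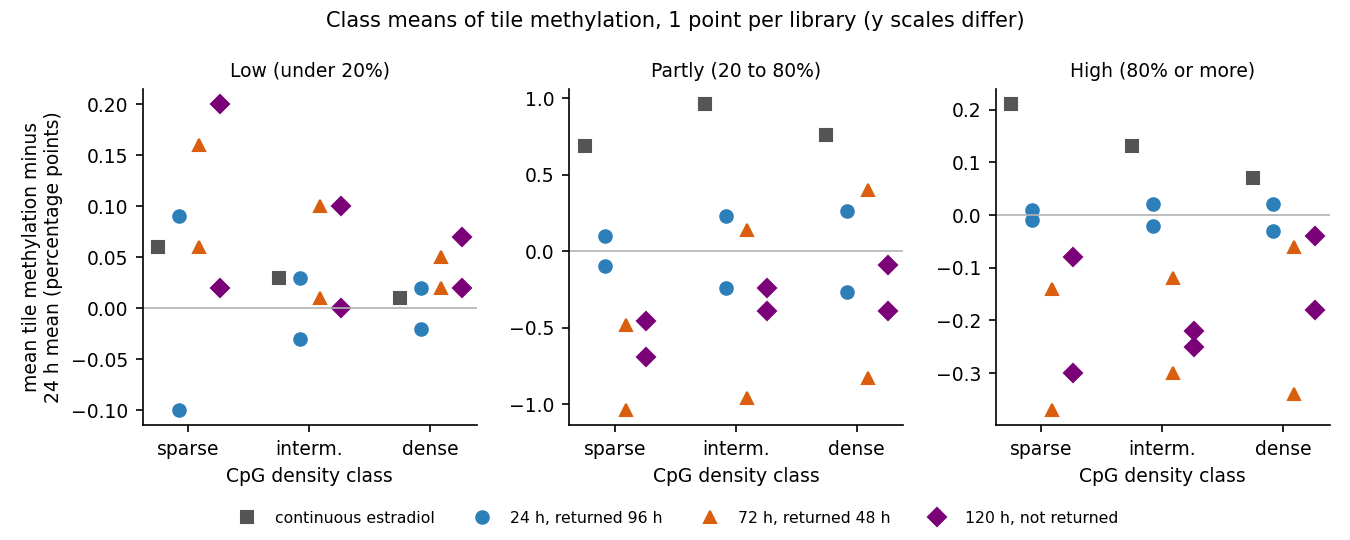
Mean tile methylation of each library as its difference from the 24 h mean (y axis, percentage points; scales differ between panels) in 9 classes of level (panels) and CpG density (x axis), 1 point per library. In sparse partly methylated tiles both the 72 h and the 120 h libraries lie below the 24 h libraries, and the library kept in estradiol lies above them. The level classes were set by the 72 h and 120 h libraries alone, so these gaps are not an independent measure of loss.

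Tile by tile, 0 of 88098 tiles (0.0%) passed an adjusted p of 0.05 between 120 h and 72 h then return (quasi-binomial model of methylated and unmethylated reads, limma's moderated dispersion, Benjamini-Hochberg; smallest adjusted p = 0.0684). An unadjusted p under 0.05 was found in 3774 tiles (4.28%), 2028 higher and 1746 lower at 120 h. By class the share was 14.14% in dense and 9.98% in intermediate partly methylated tiles. In the other classes it was 3.14 to 5.22%, and the cause of this difference was not tested. Group means differed by 10 points or more in 1159 tiles (1.32%) and by 20 or more in 34. The count of 0 depends on how the spread was estimated, and that choice was made with both results known. A dispersion from the Pearson chi-square was computed first and called 51 tiles (0.0579%), 43 higher at 120 h (0.0488%) and 8 lower. Of the 51, 24 had over 100 reads per CpG. Several of these deep tiles lay close together on chr17, so the 43 are not separate observations. In each tile of that run, replicate 1 of 72 h was the lowest of the compared libraries. Replicate 2 of 72 h mostly lay among or above the 120 h libraries, for example at 32.5% against 31.0 and 31.9%. The difference in that run thus came mainly from replicate 1 of 72 h. The dispersion from the residual deviance, used here because it matches the earlier processing of these data, called 0. With the 24 h libraries added to the estimate of spread 16 were called, 15 of them higher.

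The tiles with the smallest p outside chromosome 18, 5 in each direction, did not pass the threshold with the deviance dispersion, and all 10 passed it with the Pearson dispersion (adjusted p = 2.84e-05 to 0.0492, moderated with limma). Methylation at chr12:93017501-93018000 was 46.9 and 46.0% in the 120 h libraries and 14.1 and 31.4% in the 72 h libraries (adjusted p = 0.173 by the quasi-binomial test with limma's moderation). The 24 h libraries were at 23.2 and 24.4%, and the library kept in estradiol was at 42.2% (Wilson 95% interval 33.4 to 51.6, 109 observations). Returned cells of either kind were thus low and the other cells high, and the groups compared did not overlap. Methylation at chr7:15208001-15208500 was 55.1 and 56.0% at 120 h and 43.2 and 40.3% at 72 h, a pooled difference of 13.4 points (95% interval 9.0 to 17.7, not adjusted over tiles), while the 24 h libraries were between them at 45.9 and 47.5% and the library kept in estradiol was below them all at 34.0% (Wilson 95% interval 27.9 to 40.6). At chr1:161162501-161163000 the 120 h libraries were at 24.9 and 23.7% and the 72 h libraries at 10.7 and 17.5%. The 24 h libraries were at 21.9 and 23.0% and the library kept in estradiol at 28.6%. Both 72 h libraries were thus below the other libraries read here, at a tile chosen by its p between 120 h and 72 h. Similarly, chr8:83263001-83263500 was at 56.9 and 62.6% at 120 h, 45.1 and 49.8% at 72 h and 66.3 and 63.7% at 24 h.

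A small gain was seen at 120 h alone in chr1:55145001-55145500, where 120 h cells were at 3.0 and 6.4% and the 72 h, 24 h and continuous libraries were all at 0.0%. Adjusted p at these last 4 tiles was 0.0998 to 0.183 in the quasi-binomial test with limma's moderation.

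Among the 5 tiles that were lower at 120 h with the smallest p, all but the leading one had a larger p than the 5 higher tiles. The leading one, chr10:8270001-8270500, was at 54.6 and 50.5% at 120 h, 72.2 and 67.5% at 72 h, 70.4 and 64.7% at 24 h and 55.8% in continuous estradiol (adjusted p = 0.175, quasi-binomial test with limma's moderation). At chr4:62131501-62132000 only the 72 h libraries were high, at 85.4 and 77.4%, against 60.7 and 38.5% at 120 h, 61.1 and 42.9% at 24 h and 55.3% in continuous estradiol. The others were chr13:76081001-76081500, chr5:58110001-58110500 and chr13:102571501-102572000, and all but chr10:8270001-8270500 had an adjusted p of 0.724 or more in that test.

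Whether a change made by withdrawal was still present after return was then read in libraries that had not been used to find it. Tiles were picked where a 120 h library differed from the 24 h library of the same replicate number by 20 points or more (Fisher's exact test on reads, Benjamini-Hochberg adjusted p under 0.05), and read in the libraries of the other number. Replicate 1 gave 49 lower tiles (0.0619% of 79156) and 42 higher (0.0531%), and replicate 2 gave 50 lower (0.0568% of 88080) and 22 higher (0.025%), of which 47 and 20 could be read in replicate 1.

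Over the tiles picked as lower, most of the fall that read back at 120 h was also found in the cells that had 48 h of estradiol. The 49 tiles picked as lower in replicate 1 differed from 24 h by a mean of -13.32 points in the 120 h library of replicate 2 and of -10.55 points in the 72 h library of replicate 2, which is 0.79 of the fall. The 72 h library of replicate 1 gave 0.80 of it. The 47 tiles picked in replicate 2 differed by -15.15 points at 120 h and -16.3 points at 72 h in replicate 1, a share of 1.08, with 0.96 from the other 72 h library. Both lists hold the same 14 tiles, described below as L1 to L14, so their shares are not independent. Those tiles carried most of the fall in each list, and the others fell far less on average. The 14 are the tiles that also met the picking rule in the reading replicate. Their larger fall there was thus largely set by that choice and is a description only. Of the tiles whose fall was 10 points or more in the reading replicate, the 72 h library lay nearer to 120 h than to 24 h in 19 of 24 and in 23 of 24. The reading libraries of 120 h and 24 h chose these tiles and also place the 72 h library, so these counts are a description only. In the 72 h libraries 33 of 49 and 38 of 47 picked tiles were below 24 h at all, against 48.5 and 50.1% of tiles in general. This did not hold in each list of the deeper tiles: with 100 or more observations at 24 h, the share was -0.1 for the 15 tiles picked in replicate 1 and 2.02 for the 7 picked in replicate 2. The library kept in estradiol lay 4.61 and 2.48 points above the 24 h reading library at these tiles.

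**Figure D3:**
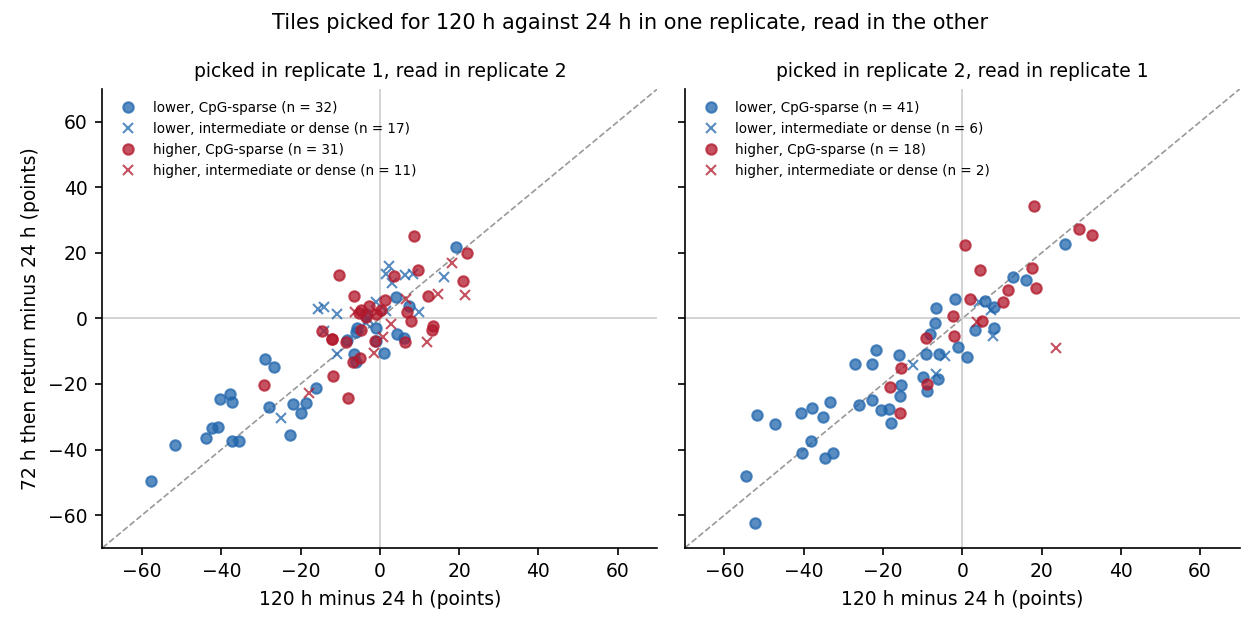
Change from 24 h at 120 h (x axis, points) and at 72 h then return (y axis, points), both in the replicate not used for picking, for tiles picked as lower (blue) or higher (red) at 120 h. Points on the dashed line kept the full change and points on the horizontal line are at the 24 h level; both axes share 1 reading library of 24 h. Blue circles, the sparse tiles that fell, lie along the dashed line and mostly on the side of a fall. Red points lie on both sides of the centre and also tend to follow the line. The shared 24 h library draws the axes together, so lying along the line does not by itself show a kept change.

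The falls that read back were larger in CpG-sparse tiles. By count, 32 of the 49 tiles picked in replicate 1 were sparse and 13 dense. Of tiles tested 69.2% were sparse and 12.4% dense, so sparse tiles were not in excess in that list. The 32 sparse ones read back at -18.87 points at 120 h and -17.71 at 72 h (share 0.94). The 13 dense ones read back at -1.37 and 4.52 points, so the dense tiles had little fall to keep. Of the 47 picked in replicate 2, 41 were sparse and read back at -17.26 and -17.7 points (share 1.03). By level, 42 and 45 of the picked tiles were partly methylated (13.2% of tiles tested were), with shares of 0.75 and 1.09, and 1 in each replicate was high. The level class is the mean of the 120 h and 72 h libraries, so a tile high at 24 h could be classed as partly methylated because it fell. These counts thus do not show the level at which a fall began.

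Gains did not read back in this way. The 42 tiles picked as higher in replicate 1, by a median of 28.8 points, were 0.65 points above 24 h in the 120 h library of replicate 2 and -0.27 points in the 72 h library. The 20 picked in replicate 2 were 5.28 points higher at 120 h and 3.06 at 72 h in replicate 1. With so little of the gain present at 120 h itself, its persistence could not be measured over these lists. The difference between losses and gains was not tested.

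The same reading was made the other way round, from tiles that had moved in the returned cells. Tiles picked as lower at 72 h numbered 52 in replicate 1 (0.0657%), and in replicate 2 these differed from 24 h by -4.58 points at 72 h and -5.24 at 120 h. Of the 52, 26 were below 24 h at 72 h and 24 at 120 h, close to the 48.5 and 48.7% of all tiles, so this list held little fall to compare. The 45 read from replicate 2 (of 48 picked, 0.0545%) differed by -15.16 points at 72 h and -13.57 at 120 h, a share of 0.89. Of tiles picked as higher at 72 h, 23 (0.0291%) from replicate 1 read back at -1.05 points, and 35 of the 37 (0.042%) from replicate 2 read back at 5.77 points. Only the list from replicate 2 thus held a fall that could be compared between returned and unreturned cells.

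In 14 tiles the fall of 20 points or more at 120 h was found in each replicate on its own, and in 2 tiles a rise. These are called L1 to L14 and H1 and H2 in order of size, and since the 120 h and 24 h libraries chose them, their levels are a description. All 14 lower tiles were CpG-sparse (69.2% of tiles tested were), with a median of 3 listed CpGs, and they lay on 9 chromosomes. Their mean was 39.8% ± 0.6 at 120 h, 46.2% ± 0.5 at 72 h then return and 78.3% ± 1.5 at 24 h (SD, n = 2), and 83.3% in the library kept in estradiol. In all 14, both 72 h libraries lay below both 24 h libraries and below the library kept in estradiol.

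The largest loss, L1 (chr1:178875001-178875500), stood at 49.2 and 56.3% in the 72 h libraries, 42.6 and 43.4% at 120 h and 97.3 and 95% at 24 h. At L2 (chr10:87816501-87817000) the 72 h libraries were at 38.6 and 33.0%, the 120 h libraries at 23.5 and 25% and the 24 h libraries at 70.8 and 82.7%. Tile L4 (chr2:91486001-91486500) was at 34.7 and 34.8% at 72 h, 44.8 and 36.6% at 120 h and 97.2 and 72.2% at 24 h. All 3 were far from the reference level after return, L4 on the far side of the 120 h libraries.

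Tile L5 (chr8:125804501-125805000) was at 12.7 and 15% at 72 h, 11.8 and 7.7% at 120 h and 50 and 51.5% at 24 h. Tile L10 (chr8:23501501-23502000) was at 26.9 and 34.1%, 35.4 and 25.2%, and 67.9 and 67.5% in the same order, so its 72 h and 120 h libraries overlapped. Tile L12 (chr2:72875501-72876000) went furthest, at 22.2 and 26.8% after 72 h and return against 30.2 and 39.7% at 120 h and 64.9 and 62.4% at 24 h. In L5 and L10 the 95% intervals for 120 h minus 72 h included 0, at -13.0 to 5.7 and -10.7 to 11.8 points. Those of L12 (1.9 to 18.9), L2 (-21.5 to -2.8) and L3 (-23.2 to -1.5) did not, without adjustment over tiles. Nor did those of L6 (-27.3 to -1.1), L9 (-22.6 to -1.9), and L13 and L14, given below. Among these tiles 72 h was the lower group in L12 only.

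The part of the fall still present in the 72 h cells, the difference of group means from 24 h as a share of that at 120 h, was 0.82 at the median of the 14 tiles and 0.43 to 1.36 over them. It was 0.75 or more in 10 tiles. The 72 h mean was above the 120 h mean in 12 of 14, and 12 showed no overlap of the 72 h and 120 h libraries (32.0% of all tiles did not overlap). Picking on the 120 h libraries favours tiles where these are low, so this side is not an independent measure of reversal. No tile of the 14 had an adjusted p under 0.972 between 120 h and 72 h (quasi-binomial test with limma's moderation).

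The smallest shares were at L14 (chr12:82043501-82044000) and L13 (chr19:3700501-3701000). L14 was at 87.2 and 85.0% at 72 h, 75 and 68.6% at 120 h and 96.7 and 97.5% at 24 h, a kept share of 0.43, and it was the only tile of the 14 whose 72 h libraries both lay nearer to 24 h. L13 was at 69.6 and 68.6%, 56.2 and 56.7%, and 83.3 and 83.3% in that order, a share of 0.53. The pooled differences of 120 h from 72 h were -13.9 points (95% interval -22.8 to -4.9) and -12.7 points (-21.4 to -4.1), without adjustment over tiles. L6 (chr10:60664001-60664500, share 0.66), at 34.7 and 29.4% against 22.7 and 13.8%, and L9 (chr5:124476501-124477000, share 0.67), at 63.7 and 65.0% against 53.1 and 50.5%, lay next. The remaining tiles were L3 (chr17:79162501-79163000, 0.75), L7 (chr4:59470501-59471000, 0.86), L8 (chr2:119122501-119123000, 0.83) and L11 (chr19:58206501-58207000, 0.86).

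**Figure D4:**
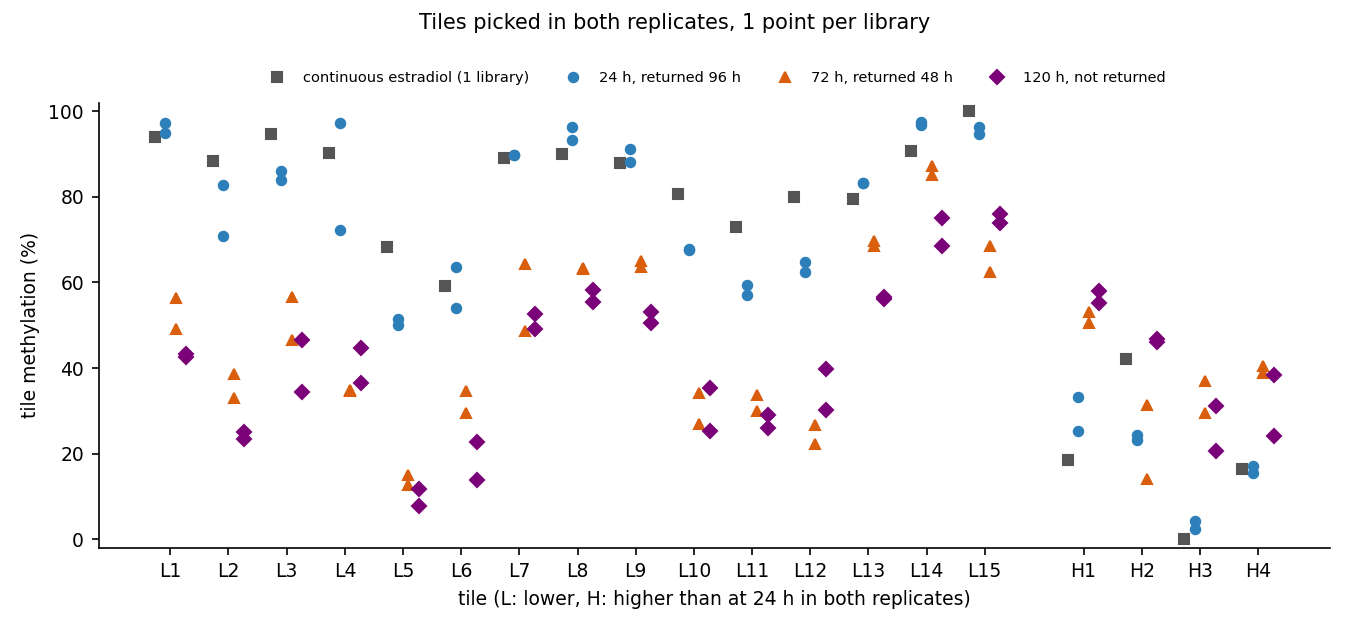
Methylation (y axis, %) of tiles picked in each replicate on its own, 1 point per library and group (squares, continuous estradiol; circles, 24 h; triangles, 72 h then return; diamonds, 120 h). L1 to L14, H1 and H2 were picked on 120 h against 24 h, and L15, H3 and H4 on 72 h against 24 h only. In L1 to L14 the triangles lie below the circles, and in H2 they lie on either side of them.

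Of the 2 higher tiles, H1 (chr2:31656501-31657000) was at 50.6 and 53.2% at 72 h, 58.0 and 55.1% at 120 h, 25.3 and 33.2% at 24 h and 18.5% in continuous estradiol. H2 is the tile chr12:93017501-93018000 described above, where the 72 h libraries lay on either side of the 24 h libraries and the library kept in estradiol was high. Its kept share was -0.05 from the group means, and -0.39 in replicate 1 and 0.33 in replicate 2.

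Picked in each replicate on 72 h against 24 h, 9 tiles were lower and 2 higher, and 8 of the 9 were among the 14. The ninth, L15 (chr4:8781001-8781500), was at 68.5 and 62.4% at 72 h, 76.0 and 74.0% at 120 h, 96.4 and 94.7% at 24 h and 100% in continuous estradiol. H3 (chr2:34476001-34476500) was at 36.9 and 29.4% at 72 h, 20.7 and 31.2% at 120 h and 2.5 and 4.3% at 24 h. H4 (chr10:81027001-81027500) was at 38.9 and 40.6%, 38.3 and 24.2%, and 17.2 and 15.5%. These changes were present in both groups and, by their means, larger after return, in libraries that chose them.

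In several tiles the fall was held by some of the CpGs. In L1 to L14, 37 of 53 CpGs were 20 points or more lower at 120 h than at 24 h and 33 were so at 72 h, 32 of them the same CpGs, while 10 CpGs stayed within 10 points of 24 h in both groups. In L8 the CpG at position 119122667 was at 92.9 and 96.8% at 24 h, 7.3 and 19.2% at 72 h and 6.2 and 8.2% at 120 h. The CpG at 119122512 in the same tile stayed at 91.7% or more in all of these libraries. In L11 the CpG at 58206640 was at 42.5 and 33.3% at 24 h, 1.2 and 4.9% at 72 h and 0.9 and 7.2% at 120 h, whereas 58206766 was at 85.2 and 94.2%, 93.2 and 89.2%, and 87.7 and 88.4%. In L14 the CpG at 82043876 was at 92.3 and 97.5% at 24 h, 73.1 and 80.0% at 72 h and 48.9 and 34.6% at 120 h, while 82043838 stayed at 89.5% or more in all 6 libraries.

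**Figure D5:**
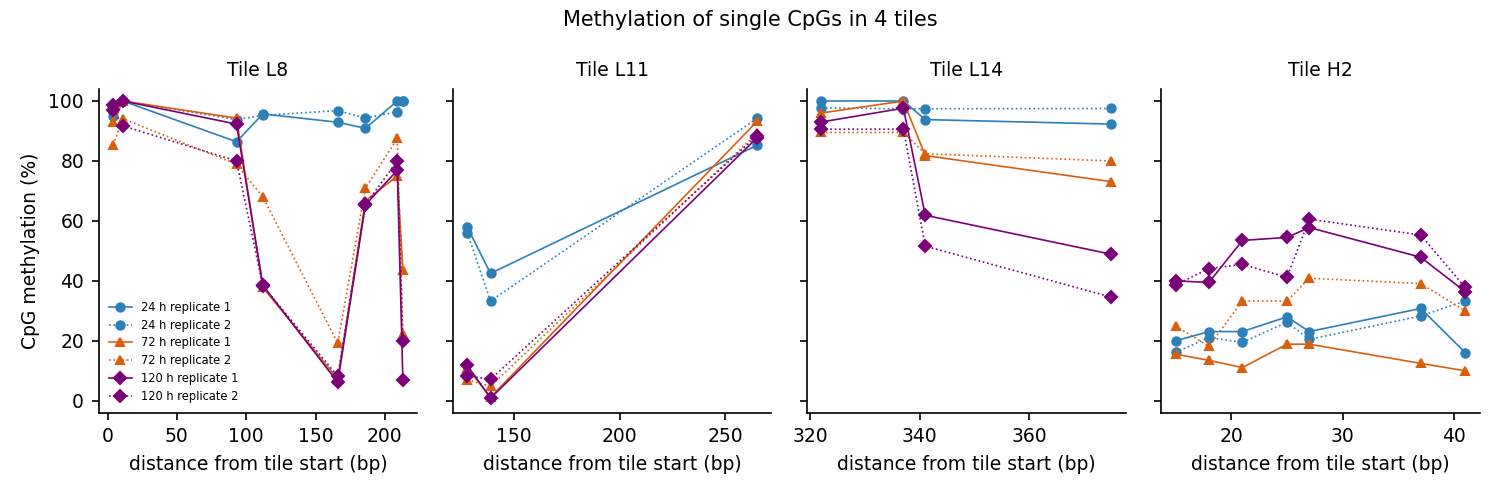
Methylation of single CpGs (y axis, %) against distance from the start of the tile (x axis, bp) in L8, L11, L14 and H2, 1 line per library (solid, replicate 1; dotted, replicate 2). In L8 the 72 h and 120 h lines dip at the same CpGs while the 24 h lines stay near the top, in L14 the 72 h lines lie between the others at the last 2 CpGs, and in H2 they lie below the 120 h lines at every CpG.

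Only L4, L5, L6, L8 and L9 of the 14 lower tiles had a covered tile within 2000 bp, and these 8 neighbours mostly did not share the loss. The tile 500 bp after L8 was at 99.5% at 120 h, 100% at 72 h and 99.3% at 24 h, and the tile 500 bp before L6 was at 96.3, 94.8 and 97.8%. The neighbour 1500 bp after L5 was lower in both groups, at 86.3% at 120 h and 91.0% at 72 h against 94.5% at 24 h.

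Most states were stable under withdrawal and return alike. Among 79154 tiles with 30 or more observations in both 24 h libraries, 18949 were low in both libraries of 24 h and of 120 h, and 99.6% of these were low in both 72 h libraries as well. For tiles high in the 24 h and 120 h libraries (46968) the share was 98.3%, and for partly methylated ones (7426) it was 92.1%. A move from high to partly methylated by 10 points or more was found at 120 h in 87 tiles. Of these, 39 (44.8%) were partly methylated in both 72 h libraries, 21 (24.1%) were high in both and 27 were split. Of 46 tiles that moved from partly methylated to high at 120 h, 17 were high at 72 h, 6 partly methylated and 23 split. The reverse reading gave 103 tiles that moved from high to partly methylated at 72 h, of which 48 (46.6%) had also moved at 120 h and 31 (30.1%) had not. It also gave 62 tiles that moved from partly methylated to high at 72 h. Of those, 13 (21.0%) were high at 120 h, 27 (43.5%) partly methylated and 22 split. These counts rest on tiles that crossed a class border in the libraries that chose them, so they are not estimates of how many changes reverted. Of the 87 tiles, 81 were CpG-sparse, as were 35536 of the 46968 that were high in the 24 h and 120 h libraries.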

How the data were processed

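Purified genomic DNA was given adapters, converted with bisulfite and amplified, per the labels' protocols. The deposited tables give 1 line per CpG with counts of methylated and of all reads, and a score of 0 to 1000 that equals 1000 times the methylated share, which was used only as a check. The same protocol text names transposed nuclei, which was not used. Per the submitters' processing notes the build was mm9. For the aligner, methylation caller and duplicate removal the entry is: not given in the sources used here. No mm9 gene annotation or genome was used, so tiles carry no gene names and no sequence. Amplified reads that carry no molecular identifier cannot be counted as separate molecules, and a read over several CpGs counts at each, so intervals cover counting error only (those of the quasi-binomial model also the moderated spread).

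Reads were summed in 500-bp tiles with 3 or more CpGs of 10 or more reads in each of the 4 libraries. Of 89356 tiles, 1258 whose reads were all methylated or all unmethylated were left out. A quasi-binomial model with 1 mean per group and a deviance F test was fitted per tile. The dispersion was moderated with limma 3.58.1 and not below 1. The design did not fix the dispersion estimator. A Pearson chi-square dispersion (68.5 prior degrees of freedom) was fitted first and called 51 tiles, and a residual-deviance dispersion (17.77) called 0. The latter was taken with both results known, because it matches the earlier processing of these data, and the former is given as an alternative. The test and the read-back were tested on simulated data. Adjusted p-values are Benjamini-Hochberg over all tiles tested. Differences in the read-back are means over tiles and shares are ratios of summed differences, without a test, and Fisher p-values of tiles under 5 points apart were set to 1, since these are never picked.

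Named tiles were the 5 each way with the smallest p (none passed the threshold), those picked in each replicate on its own, and those of them with the widest difference between 72 h and 120 h. The rule took up to 10 each way, and all 14 lower tiles are named. The class-switch counts with their minimum of 10 points, the decision to give no share at higher tiles, and the neighbours and single CpGs shown were chosen after values were seen. Chromosome 18 was counted and not named. The members, lists and tests were chosen with earlier results of these data known. Python 3.11.15 and R 4.3.3 were used.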

Additional observations from a re-analysis of the deposited data

How the results depend on the processing

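The count of 0 tiles between 120 h and 72 h then return (3774 at an unadjusted p under 0.05) stayed at 0 with a minimum of 5 or 20 reads per CpG, single CpGs, no lower limit on the dispersion, limma on logit values (4608 unadjusted), tiles at 5 to 95% methylation and without the deepest 1% of tiles. Leaving out any 1 library also gave 0, but these fits set 2 libraries against 1, with the lone library assumed to vary like the other group, and their smallest adjusted p was 0.943 to 1.0, so they say nothing of stability. It became 5 in 1000-bp tiles, 16 with the spread of 6 libraries and, with the Pearson dispersion (computed first, and replaced by the deviance dispersion with both results known), 51, or 25 without the deepest 1%. Among the 16, 9 had over 100 reads per CpG, and 4 were adjacent at chr17:39980501-39982500. The 2 groups' replicate differences were hardly correlated across tiles (r = 0.019), but read sampling in each tile lowers this value. It thus does not show whether replicate numbers pair these samples. In class means of the 120, 72 and 24 h groups, replicate 1 lay above replicate 2 in each low class. It lay below replicate 2 in each high class, for example at 93.93 against 94.15% in sparse high tiles at 120 h. The fit with a replicate block called 0 tiles (134 unadjusted). With reads summed over a class, the difference of 120 h from 72 h was 0.52 points in sparse, 1.39 in intermediate and 2.25 in dense partly methylated tiles, and 0.07 in dense low tiles. Classed by CpG spacing, that of intermediate high tiles was 0.07. The cause was not tested. With each tile weighted alike, the difference was 0.18 points in sparse and 0.1 in intermediate partly methylated tiles. From same-numbered libraries alone, that tile-weighted difference was 0.58 (replicate 1) and -0.21 (replicate 2) in sparse partly methylated tiles. In intermediate partly methylated tiles these values were 0.72 and -0.53. The share of tiles 20 points or more apart was 0.3% between groups and 0.31% between replicates, and that of 10 points at a minimum of 20 reads was 2.15 and 2.19%. The share of the fall kept at 72 h was 0.93 as a mean of the reading replicates and 0.88 to 0.98 over the other settings, and 0.79 or 1.08 in 1 replicate alone. With 100 or more observations at 24 h the mean of 0.96 came from -0.1 (15 tiles) and 2.02 (7 tiles). The 120 h rise read back at higher tiles, 2.96 points, was -1.32 for tiles picked at 30 points or more. Depth limits single tiles: L1 to L14 held 40 to 409 observations in each of the 4 libraries and 17 to 78 in the library kept in estradiol.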

Other observations

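Cells returned to estradiol after shorter absences were read at the 14 tiles that fell in each replicate, none of which they had helped to choose. Mean methylation was 58.9 and 67.3% in the 40 h libraries (80 h of return) and 55.5 and 57.4% in the 56 h libraries (64 h of return), against 45.8 and 46.6% at 72 h, 40.2 and 39.3% at 120 h, and 79.4 and 77.3% at 24 h. The groups did not overlap, though the lower 40 h library (58.9%) was near the higher 56 h library (57.4%). The 40 h and 56 h libraries were the shallowest of the series, at 8234933 to 10317379 CpG-read observations, and the 24 h and 120 h libraries chose the tiles. A longer absence went with a shorter return, so these times cannot be told apart.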
